A study of Homo sapiens with 2 samples.

Results

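The genes described here are the nuclear genes for the mitochondrial respiratory chain, the mitochondrial ribosome and the import machinery of the mitochondrial membranes. They were taken by symbol (NDUF, UQCR, SDHA to SDHD, COX followed by a digit, ATP5, MRPL, MRPS, TIMM and TOMM), which gave 29 of the 2046 genes in the table. RNA came from MDA-MB-231, a human triple-negative breast cancer line, in 2 samples with 1 library each. The wild-type cells carry the label TAMER+/+ and the knockout cells the label TAMER-/-, where TAMER is taken as TMEM25, the transmembrane protein gene that the series design names as knocked out. Both were cultured in DMEM medium plus serum, and the labels do not say whether the knockout cells were 1 clone. The series title concerns activation of STAT3 by monomeric EGFR in this cancer.

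With 1 library per genotype, the spread between replicates is unknown and nothing was tested. All 2046 genes of the table have a knockout value of at least 1 and a deposited knockout to wild-type ratio of at least 2, so every gene described here is higher in the knockout library by the way the table was cut. Genes with lower or like values in the knockout were not analysed here, and TMEM25, EGFR and STAT3 were not among those listed, so loss of the TMEM25 transcript could not be checked. Of 12 markers of luminal breast cells, TFF1 and TFF3 were listed, with a summed value of 6048 in knockout and 4.62 in wild-type cells, and TFF1 alone stood at 5920 against 0.94. Of 10 genes of mesenchymal-like breast cancer cells, such as VIM and CD44, 0 were listed. A gene alike in both libraries, lower in the knockout or absent from both would not be listed. The unlisted markers of both kinds therefore cannot bear on the identity of the cells. TFF1 and TFF3 at such levels are unusual for MDA-MB-231, so the identity of the knockout library is in doubt. The identity of the wild-type library was not tested either. The epithelial gene EPCAM stood at 146 in that library, beside 420 in the knockout library. Both libraries are called by their labels here, and whether the differences below go with genotype or with the identity of the cells cannot be told apart.

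Oxidative phosphorylation passes electrons from NADH and succinate through complexes I to IV of the inner mitochondrial membrane and uses the resulting proton gradient to make ATP at the ATP synthase. Most subunits are encoded in the nucleus, made in the cytosol and carried inside by the TOM complex of the outer membrane and the TIM complexes of the inner membrane. The core of complexes I, III and IV and of the synthase also needs proteins encoded by mitochondrial DNA, which the mitochondrial ribosome makes. Breast cancer cells of this line are known for strong glycolysis, and a fraction of STAT3 has been described in mitochondria, where NDUFA13, also called GRIM-19, is a described partner.

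The members came from several parts of the machinery in small numbers, and differences between the parts were not tested. Of 212 nuclear protein-coding genes in RefSeq that fit the symbol rule, 29 were listed, or 13.7%, beside 10.0% of all 20052 protein-coding genes. The number of unlisted genes that these cells do not express is unknown. Complex I gave 10 of 37 subunit genes, namely 1 of 7 for core subunits and 9 of 30 for accessory subunits. The ATP synthase gave 5 of 17 subunit genes, complex IV 3 of 17 and complex III 1 of 8. The totals count genes of the symbol rule, and more than 1 gene can encode the same subunit, as for subunit c of the ATP synthase. Complex II, which links the citric acid cycle to the chain, gave 0 of 4 subunits, and its assembly factors also gave 0 of 4. The mitochondrial ribosome gave 7 of 77 proteins, 6 of 49 with an MRPL symbol and 1 of 28 with an MRPS symbol. That 1 is MRPS30, which structural studies place in the large subunit despite its name, so no protein of the small subunit was among the 7. Import gave 1 of 15 TIM genes and 0 of 7 TOM genes. Complex I assembly factors gave 1 of 9 and complex IV assembly factors 0 of 9. The share listed was 29.4% for the ATP synthase, 27.0% for complex I, 17.6% for complex IV and 12.5% for complex III. It was 9.09% for the mitochondrial ribosome and 6.67% for TIM genes.

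The start regions of these genes give context for members that were listed together. The reference promoter table (RefSeq, GRCh38.p14, 250 bases before to 50 bases after the start) held 21 of the 29 members. COX6C, ATP5MF, NDUFB9, ATP5MC3, MRPL23, MRPL35, NDUFAF6 and UQCRHL had no entry. Motifs of 3 factors described at genes of the respiratory chain were searched on both strands, each motif by itself, and no matches in the members overlapped each other. CCGGAAG, the ETS core bound by GABPA, was in 8 of 21 member promoters (38.1%), beside 12.4% of 1610 listed genes, 10.7% of all 27305 promoters and 36.4% of 184 promoters of genes that fit the symbol rule whether listed or not. ATGGCG, the YY1 core, was in 6 of 21 (28.6%), beside 11.1%, 11.01% and 37.5% of the same sets. GCGCATG, part of the NRF1 motif, was in 1 of 21 (4.76%), beside 4.72%, 4.67% and 15.8%. The shares with the ETS core are thus alike in listed and all genes of this machinery, while both exceed the share among all promoters. Among 15842 promoters of protein-coding genes the shares were 14.2% for the ETS core, 14.3% for the YY1 core and 5.87% for the NRF1 part. For the YY1 core and the NRF1 part the members had lower shares than all genes of this machinery, from 21 promoters. A match describes letters only.

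3 stretches are shown because they hold a match outside annotated exons, with the match in capitals and positions counted back from the RefSeq start (first base upstream is -1). They belong to a complex I subunit, an import protein and a ribosomal protein. NDUFB7 is on the minus strand at chr19:14572067-14572186 and its match is the ETS core, from base -24 of the promoter. TIMM29 is on the plus strand at chr19:10928682-10928732 and its match is the ETS core on the opposite strand, from base -89. MRPL52 is on the plus strand at chr14:22829821-22829878 and its match is the YY1 core, from base -61. The promoter of MRPL52 was the only one of the 21 with all 3 motifs, the other matches lying outside the stretch shown.
NDUFB7: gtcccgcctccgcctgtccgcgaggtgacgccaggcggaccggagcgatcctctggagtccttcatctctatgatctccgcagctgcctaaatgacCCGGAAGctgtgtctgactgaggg
TIMM29: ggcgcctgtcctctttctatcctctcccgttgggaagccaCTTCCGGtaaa
MRPL52: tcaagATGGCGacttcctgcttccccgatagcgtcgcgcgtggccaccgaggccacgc

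Levels are given as the deposited expression value, which is scaled for gene length and library depth, so that it can be compared between genes. Its unit, FPKM or TPM, is not named. The read-count fold is the ratio of the deposited read counts divided by 1.155, the factor by which the knockout library typically had more reads for the same expression value, and its 95% interval is an exact conditional binomial one that covers counting error only. Sequenced reads are not independent molecules where the library has no molecular identifiers.

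Complex I, the NADH dehydrogenase, had the most members. In the plot of values by gene its 10 subunits lie between 27.6 and 304 in knockout cells and between 10.2 and 144 in wild-type cells, and their summed value was 1859 against 644. NDUFA1, a small X-linked accessory subunit of the membrane arm needed for assembly (chrX:119871487-119876662, plus strand), stood at 266 against 44.2, from 2245 and 323 reads. Its read-count fold of 6.02 (5.35 to 6.78) was the highest of the complex, and its interval does not meet that of any other listed subunit of complex I. NDUFB2, another accessory subunit of the membrane arm (chr7:140690777-140722790), was next at 169 against 44.1, with a fold of 3.83 (3.40 to 4.33). NDUFA1 and NDUFB2 thus had nearly equal wild-type levels and different knockout levels.

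NDUFA13 (chr19:19515736-19529054), the accessory subunit described as a partner of STAT3, stood at 272.5 against 87.4, with 2591 and 719 reads and a fold of 3.12 (2.87 to 3.39). NDUFV2 (chr18:9102630-9134345), an iron-sulfur subunit of the NADH-oxidising arm and the 1 core subunit listed, stood at 221 against 72.3, with a fold of 3.05 (2.84 to 3.27). NDUFA3, a small membrane arm subunit, was at 140.5 against 48.2 (fold 2.93). The intervals of these 3 overlap each other, so their folds are not told apart by counting error. NDUFA9, a peripheral arm subunit, was the least abundant of the complex at 27.6 against 10.2, with a fold of 2.72 (2.36 to 3.14). NDUFB7 and NDUFB10, which face the intermembrane space, stood at 170 against 69.6 and 198 against 84.7, with folds of 2.37 and 2.34. NDUFC1, a membrane arm subunit, was at 89.8 against 40.1 (fold 2.33). NDUFB9, a protein of the LYR family in the membrane arm (chr8:124539101-124580648), had the highest level of the complex in both libraries, 304 against 144, and the lowest fold, 2.12 (2.0003 to 2.25). The intervals of NDUFB7, NDUFB10 and NDUFC1 overlap that of NDUFB9, so the lowest folds of the complex are not told apart. NDUFAF6, an assembly factor and no subunit, stood at 20.2 against 8, and the interval of its fold includes 2 (1.92 to 2.53).

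**Figure D1:**
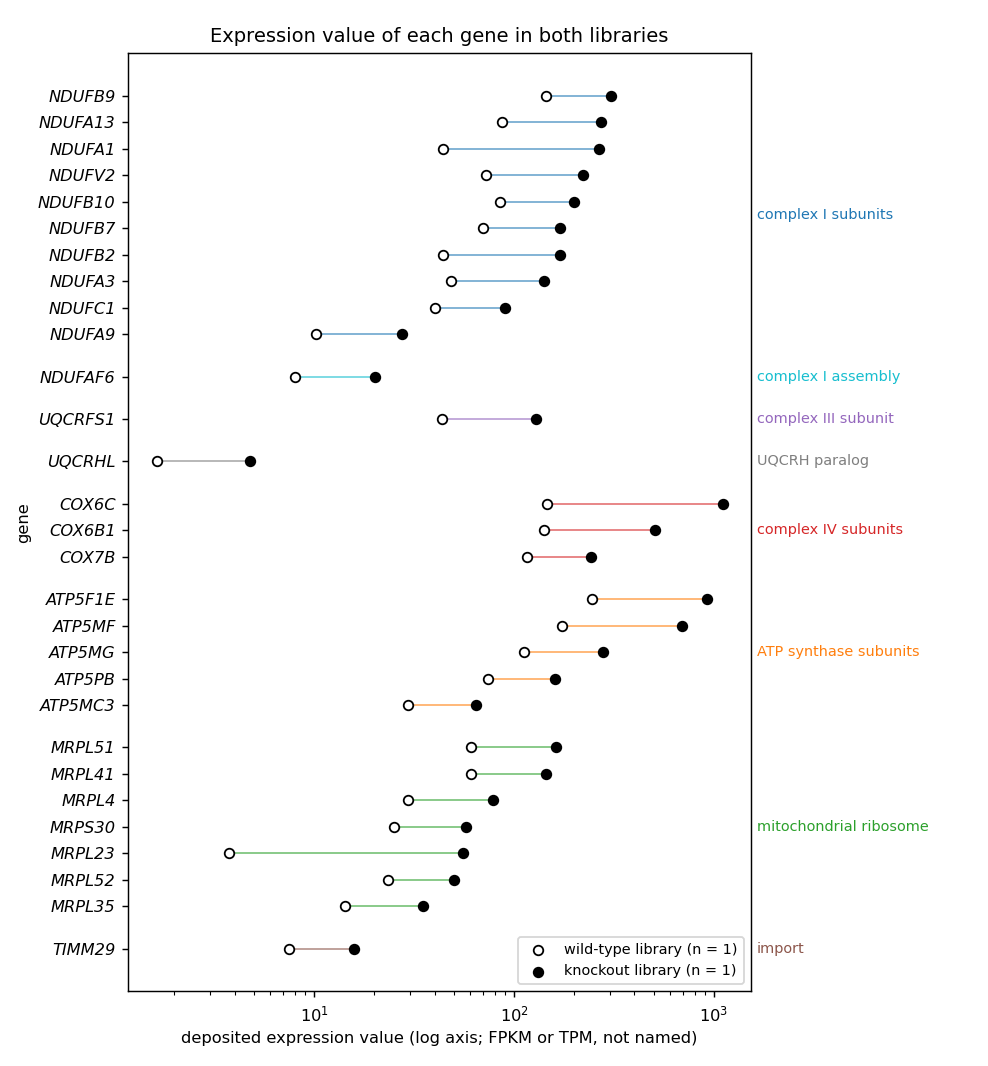
Deposited expression value (log axis) of the 29 genes, one row per gene grouped by complex, with open circles for the wild-type library and filled circles for the knockout library (1 library each, no error bars). COX6C has the highest knockout value, 1104, and MRPL23 the widest gap, 55.7 against 3.73.

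Complex III, which passes electrons from ubiquinol to cytochrome c, had 1 subunit listed. UQCRFS1, the Rieske iron-sulfur protein of its catalytic core (chr19:29205321-29213541), stood at 128 against 43.7, from 2870 and 844 reads, with a fold of 2.94 (2.72 to 3.18). UQCRHL, an intronless near copy of the subunit gene UQCRH, was at 4.75 against 1.63 from 44.8 and 13.3 reads. Its fold of 2.92 has the widest relative interval of all members (1.59 to 6.05), and how reads shared with UQCRH were divided is not given in the sources used here. UQCRH itself was not listed.

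Complex IV, cytochrome c oxidase, held the member with the highest knockout value. COX6C, a small nuclear-encoded subunit (chr8:99873200-99894062, minus strand), stood at 1104 against 146, from 12428 and 1468 reads, with a fold of 7.33 (6.94 to 7.74). It ranked 10 among the 2046 genes by knockout value and 38 by wild-type value. COX6B1, a subunit on the intermembrane side (chr19:35648223-35658861), stood at 508 against 141, with a fold of 3.60 (3.39 to 3.83). COX7B, an X-linked subunit (chrX:77899438-77907373), stood at 241 against 116, with a fold of 2.08 and an interval that includes 2 (1.92 to 2.27). The 3 intervals do not meet. The 3 subunits lay within 1.26-fold of each other in the wild-type library and within 4.57-fold in the knockout library. COX6C decides the sum over complex IV, whose value was 4.59 times the wild-type value with it and 2.92 times without it.

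**Figure D2:**
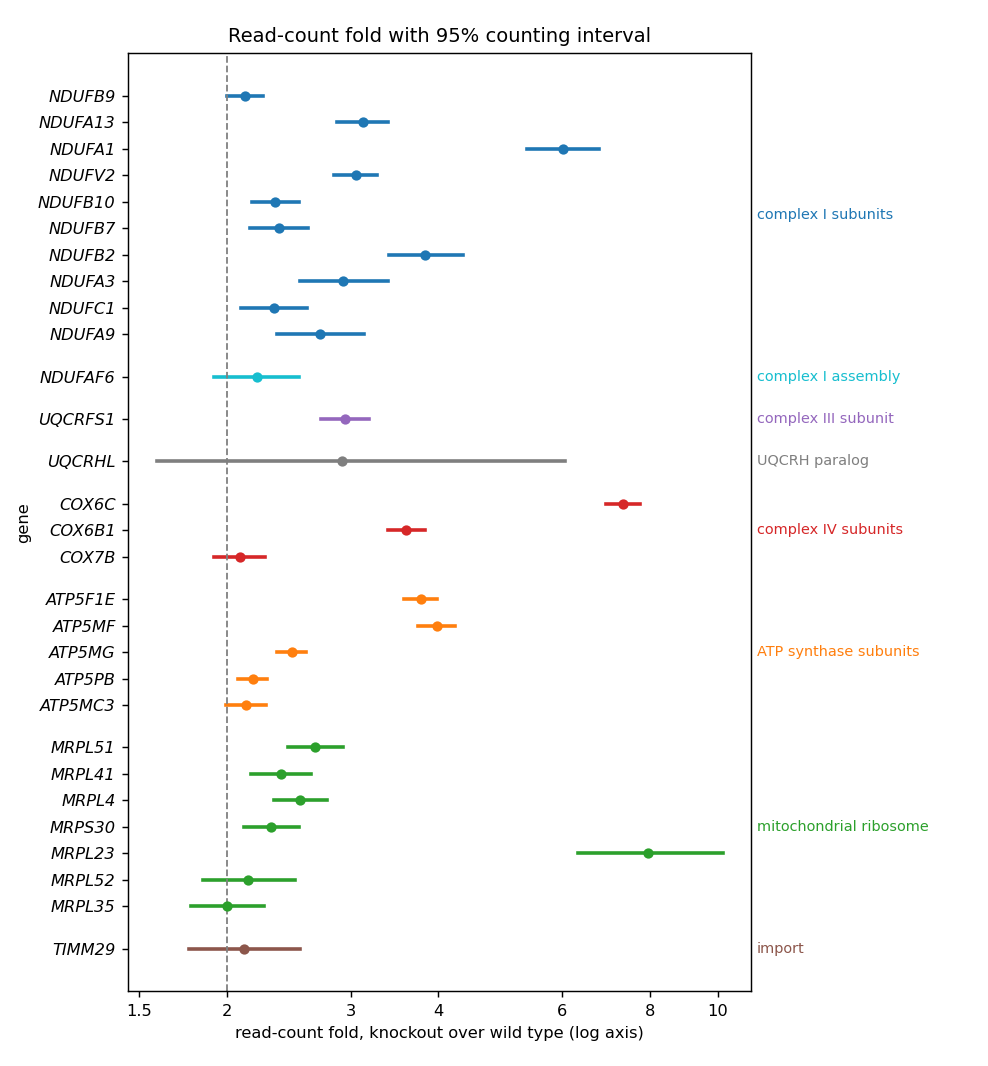
Read-count fold of knockout over wild type (points, log axis) with 95% counting intervals (bars) for the 29 genes, the dashed line marking 2. The intervals of COX6C, NDUFA1 and MRPL23 lie above 5, and those of 7 genes cross the line.

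The ATP synthase members came from both of its parts. ATP5F1E, the small epsilon subunit of the catalytic F1 head (chr20:59025467-59032382, minus strand), stood at 919 against 244, from 6961 and 1597 reads, with a fold of 3.77 (3.57 to 3.99). It had the highest wild-type value of all 29 members. ATP5MF, subunit f of the membrane part (chr7:99448475-99466331), stood at 689 against 174, and the interval of its fold of 3.98 (3.75 to 4.23) overlaps that of ATP5F1E. ATP5MG, subunit g beside it in the membrane, was lower at 277 against 112, with a fold of 2.47 (2.36 to 2.59). ATP5PB, subunit b of the peripheral stalk, stood at 160 against 73.8 with a fold of 2.17 (2.08 to 2.28). ATP5MC3, 1 of the genes that encode subunit c of the rotor ring, stood at 64.1 against 29.3 with a fold of 2.13 (1.996 to 2.27). ATP5F1E and ATP5MF thus form an upper pair whose intervals do not meet those of the other 3. The catalytic subunits alpha and beta, ATP5F1A and ATP5F1B, were not listed.

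The mitochondrial ribosome members were less abundant than most respiratory subunits, with a median value of 57.6 against 24.9, beside 221 against 73.8 for the 19 listed subunits of the respiratory complexes. MRPL51 (chr12:6491886-6493841) stood at 163 against 61.0 (fold 2.67, 2.44 to 2.92), and MRPL41 (chr9:137551199-137552555) at 144 against 60.5 (fold 2.39, 2.16 to 2.63). Both are proteins that the bacterial ribosome lacks. MRPL4, a protein with a bacterial counterpart, was at 78.8 against 29.6 (fold 2.54, 2.33 to 2.78), and MRPS30 at 57.6 against 24.9 (fold 2.31, 2.11 to 2.53). MRPL52 was at 49.8 against 23.4 (fold 2.14, 1.85 to 2.50). MRPL35 was at 34.9 against 14.3, a deposited ratio of 2.44 beside a read-count fold of 2.0001 (1.78 to 2.25). Apart from MRPL23, the ratios of these proteins ran from 2.13 to 2.67 in the authors' deposited table, which was cut at 2. Their read-count folds ran from 2.0001 to 2.67, and the interval of MRPL35 does not meet those of MRPL51 and MRPL4.

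MRPL23, a protein at the exit of the nascent chain tunnel (chr11:1947278-1984522, plus strand), stood apart. It stood at 55.7 against 3.73, a ratio of 14.9 in the authors' deposited table, the highest of the 29. Its reads were 736 and 80.2, which give a fold of only 7.94 (6.32 to 10.2). Reads per unit of expression moved by -46.8% against the typical gene in MRPL23, by -18.0% in MRPL35 and by -12.7% in NDUFAF6, while the other 26 members lay within 5% of it. For MRPL23 the size of the difference therefore depends on which deposited column is read, while both give the highest value of the 29. The interval of its fold from reads overlaps those of COX6C and NDUFA1. An annotated antisense gene, MRPL23-AS1, overlaps it, and whether counting used strand is not given in the sources used here.

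**Figure D3:**
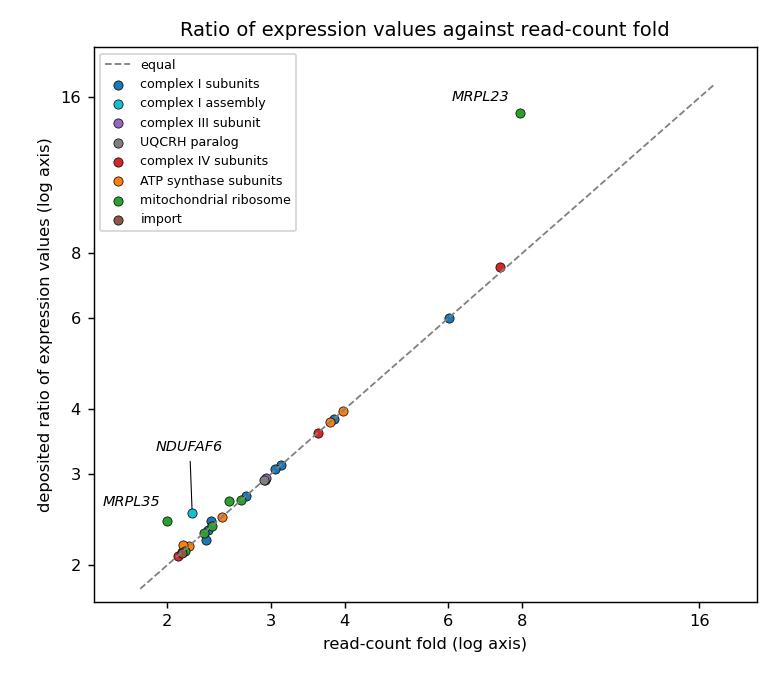
Ratio of expression values in the authors' deposited table against the read-count fold for the 29 genes, both on log axes, with a dashed line of equality. MRPL23 lies far above the line at 14.9 against 7.94, MRPL35 and NDUFAF6 lie slightly above it, and the other genes lie near it.

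Import was represented by TIMM29 alone, a subunit of the TIM22 complex that inserts carrier proteins into the inner membrane (chr19:10928733-10933535). It stood at 15.9 against 7.50, from 413 and 169 reads, with a fold of 2.12 and an interval that includes 2 (1.76 to 2.55). On the log2(value + 1) scale its ratio was 0.99, the only one of the 29 under 1.

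Over all 29 members, the median log2(value + 1) ratio was 1.30, beside 1.33 for all 2046 listed genes. The order of these medians depends on the scale. On the log2 scale they were 1.41 beside 1.74 for the deposited ratio and 1.35 beside 1.71 for the read-count fold, while a pseudocount of 5 gave 1.23 beside 0.90. On the log2(value + 1) scale 28 of 29 reached 2-fold, beside 80.6% of listed genes. The read-count fold was at least 2 for 29 of 29, beside 97.1%. The pseudocount of 1 lowers ratios of scarce genes most, and 28 of the 29 members were in the upper part of the table by wild-type value, among the first 1023. The lower limit of the counting interval lay above 2 for 22 members (75.9%), beside 76.5% of listed genes. It did not for COX7B, ATP5MC3, MRPL52, MRPL35, NDUFAF6, TIMM29 and UQCRHL. Among genes with a wild-type value of at least 5, 26 of 27 members reached 2-fold on the log2(value + 1) scale, beside 756 of 825 listed genes (91.6%).

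Large ratios were scarce among the members. The ratio in the authors' deposited table was at least 3 for 9 of 29 (31.0%), beside 57.4% of listed genes, and at least 4 for 3 of 29, COX6C, NDUFA1 and MRPL23, beside 41.2%. The table's largest ratios belong to genes with little wild-type signal, and the members had a median wild-type value of 48.2, beside 2.91 for all listed genes. Among the 825 listed genes with a wild-type value of at least 5 the share with a ratio of at least 3 was 34.9%, and among the 27 members of that kind it was 29.6%. A ratio of at least 4 was held by 2 of these 27 members (7.41%) and by 134 of the 825 genes (16.2%). The median wild-type value was 60.5 for the 27 members and 15.8 for the 825 genes. Knockout and wild-type levels kept nearly the same order across the 29 members (Pearson r 0.94 on log2 values, Spearman rho 0.96), which share 2 libraries and a limit on their ratio, and genes are not replicates.

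**Figure D4:**
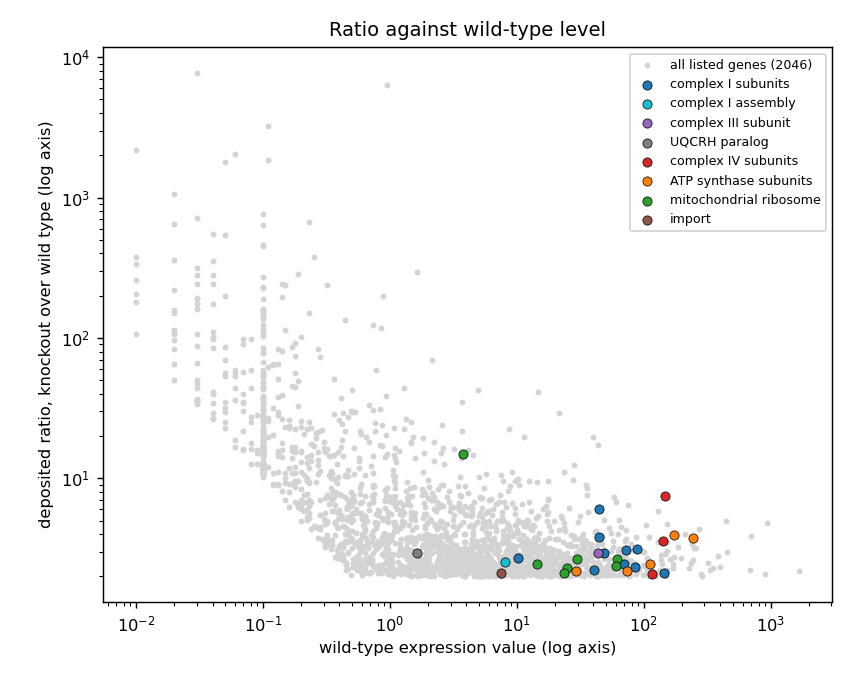
Deposited ratio of knockout over wild type against wild-type expression value (both log axes) for all 2046 listed genes in grey and the 29 members in colour by complex. Most members sit at the right at ratios of 2 to 4, while MRPL23 and UQCRHL have wild-type values of 3.73 and 1.63. Among listed genes with a wild-type value of at least 5, 16.2% have a ratio of at least 4, beside 41.2% of all listed genes.

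By position, 7 of the 29 members were on chromosome 19 (24.1%), which held 8.65% of listed genes with coordinates and 22 of the 212 genes of the symbol rule. They were COX6B1, NDUFA13, NDUFB7, NDUFA3, UQCRFS1, MRPL4 and TIMM29. Chromosome 8 held 3 of 7 genes of the rule, COX6C, NDUFB9 and NDUFAF6, with folds of 7.33, 2.12 and 2.205, so the members there did not share 1 size of difference. In GENCODE 29, 19 of the 29 members overlapped another annotated gene, and for 4 of them that gene was also listed. RNF113A, which overlaps the start of NDUFA1 on the other strand, was at 17.8 against 4.53 (fold 3.93, 3.13 to 4.97), far below the level of NDUFA1. TATDN1 and MTSS1 overlap NDUFB9, CPSF4 overlaps ATP5MF and NCAPD2 overlaps MRPL51, with folds of 2.15, 2.56, 1.98 and 2.01. Without strand, reads from the shared bases of such pairs cannot be told apart unless they cross a splice junction.

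Of 110 further nuclear genes of mitochondria that the symbols do not take, 9 were listed (8.18%), beside 10.0% of all protein-coding genes, and 6 of the 9 reached 2-fold on the log2(value + 1) scale, beside 80.6% of listed genes. The table held 0 genes of mitochondrial DNA, and whether its annotation covered the 13 subunits encoded there is not given in the sources used here. Of 17 regulators of mitochondrial biogenesis, among them PPARGC1A, NRF1, GABPA and TFAM, 0 were listed. Of 38 further subunits and assembly factors 2 were listed, both just under 2-fold on the log2(value + 1) scale. They were TACO1, which activates translation of the mitochondrial COX1 message, at 52.5 against 26.1, and CMC2, a complex IV assembly protein, at 67.9 against 33.8. Of 21 further import and processing genes 4 were listed and 3 reached 2-fold. DNAJC15, a co-chaperone of the import motor, had the largest fold of these 4, 4.69 (4.03 to 5.47), at 21.5 against 4.60. The matrix chaperonin pair HSPD1 and HSPE1 stood at 342 against 139 and 136 against 46.2, with folds of 2.47 and 2.96, and PAM16, another motor subunit, at 22.2 against 11.1. Of 20 further ribosome and translation genes only GADD45GIP1, a large-subunit protein, was listed, at 87.2 against 41.9 and a fold of 2.08. Of 14 citric acid cycle genes 2 were listed and both reached 2-fold, IDH3G, a subunit of isocitrate dehydrogenase, at 69.8 against 25.9 and DLD, the lipoamide dehydrogenase shared by several complexes, at 43.8 against 21.2.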

How the data were processed

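RNA of 1 wild-type and 1 knockout sample was sequenced. Per the submitters' processing notes, CASAVA 1.4, HISAT2 2.0.4 and GRCh38.p12 were used. Not given in the sources used here are the counting tool, annotation and use of strand. Per the file headers, the authors deposited for each library an expression value, treated as a signal scaled for length and depth, and a read count, treated as an expected count since 43.7% of knockout counts were not whole. They also deposited the ratio of knockout to wild type. The deposited log2 columns have crossed headers (2046 of 2046 genes) and were not used. The number of columns not matched to a sample was 0.

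The log2 ratio was log2((knockout + 1) / (wild type + 1)) for genes reaching 1 in either library, called at 2-fold by size. The fold factor 1.155 is a median over 1133 genes whose wild-type reads were at least 100. Counts were rounded for intervals (scipy 1.17.1, Python 3.11.15), and the intervals were tried on counts simulated with counting error only. That is the error they assume, so the trial does not cover expected counts, an estimated fold factor or spread between replicates. Coordinates are from GENCODE 29 on GRCh38 by Entrez number, matched for 29 members. RefSeq names matched for 29. Symbol-rule totals leave out mitochondrial DNA and read-through genes. Every member is named, with other lists named where listed. The members and lists were chosen with earlier results of these data known. Depth per library is not known, since the table holds part of each. Reads of the 29 members summed to 83306 and 23679.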

Additional observations from a re-analysis of the deposited data

How the results depend on the processing

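The alternatives without COX6C, MRPL23 or UQCRHL were chosen after seeing the data. The 28 members at least 2-fold higher became 3 under a 4-fold rule, which is stricter by construction, and ran from 22 to 29 under the other settings tried. The count for the respiratory complexes stayed at 19 of 19 under the settings tried for it, and that of the mitochondrial ribosome at 6 or 7 of 7. The cut of the table at a ratio of 2 favours high counts, and the main setting called 80.6% of all listed genes. The lower limit of the counting interval lay above 2 for 17 of 19 and 5 of 7, beside 76.5% of listed genes. A deposited ratio of at least 4 was held by 2 of 19 and 1 of 7, beside 41.2%. For import the count was 0, and 1 with a pseudocount of 0.1, from read counts with and without scaling and from the ratio as deposited, since TIMM29 sits at the limit. The median log2 ratio of 1.30 ran from 1.23 with a pseudocount of 5 to 1.55 from read counts with no scaling. With a pseudocount of 5, 25 members reached 2-fold, beside 41.3% of all listed genes. That pseudocount lowers ratios of scarce genes most, and the members had a median wild-type value of 48.2, beside 2.91 for all listed genes. The 2 shares are therefore not compared at like levels. No paired analysis was possible because each genotype had 1 library, and no library could be left out. Intervals cover counting error only, and UQCRHL, with 13.3 wild-type reads, is limited most by depth.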
